A study of Mustela putorius furo with 2 samples.

Results

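EGFR and OLIG1 gliogenic progenitors are described here from single-cell RNA of newborn ferret (postnatal day 3, wild type) dorsal cortex. They were chosen by UMIs of 5 genes: a cell was taken when the count matrix held at least 2 unique molecular identifiers (UMIs, each counted once per captured RNA molecule) of EGFR and at least 2 of OLIG1. It also had to hold no more than 1 UMI of PDGFRA and SOX10 together and no more than 1 of EOMES. The rule took 277 of 14787 cells. The study's samples form 1 group of 2 replicates, with no treatment, mutant or second age, so every comparison is between kinds of cell inside the same 2 libraries. The cells came from papain-dissociated tissue and went through 10x Chromium droplets, so their position in the tissue and their descendants are not known. The deposited barcodes carry 2 suffixes, called library A and library B here. The labels tie neither suffix to a replicate, and they leave unsaid if different pups gave the 2 replicates. A p-value here thus rests on the difference between kinds of cell within these 2 libraries, set against a spread that the test shares across genes. That spread may be technical.

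EGFR is the receptor for epidermal growth factor and related ligands, and it signals through RAS and ERK. OLIG1 is a basic helix-loop-helix transcription factor of the oligodendrocyte lineage. Late in cortical development, radial glia and their progeny turn from making neurons to making astrocytes and oligodendrocytes, and progenitors that carry both EGFR and OLIG1 are known from that period. Oligodendrocyte precursors are recognised by PDGFRA and SOX10, and intermediate progenitors of excitatory neurons by EOMES. GSX2, DLX1 and DLX2 are transcription factors of the ventral telencephalon, where inhibitory interneurons are made, and they also occur in progenitors of olfactory bulb interneurons.

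Library A gave 201 of these cells among 9782, or 2.05% (exact 95% binomial interval 1.78 to 2.36). Library B gave 76 among 5005, or 1.52% (1.20 to 1.90). Their RNA summed to 1182738 UMIs in library A and 409534 in library B. They were deeper than the other cells, with a median of 5198 and 4229.5 UMIs per cell against 3580 and 3052. A rule that asks for several UMIs of the same gene favours deep cells, so both the share and its members depend on depth. When every cell was thinned at random to 1500 UMIs, the same rule found 87 cells (0.889%) and 28 cells (0.559%), of which 76 and 27 were also chosen at full depth. Mitochondrial UMIs made up a median of 1.47% and 1.62% in the chosen cells and 1.19% and 1.49% in the others. A doublet score above 0.2 was found in 7.46% and 7.89% of the chosen cells and in 3.57% and 2.70% of the others. Of the barcodes, 21 occurred in both libraries, and none of these was chosen in both. All intervals cover counting error only.

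Since EGFR and OLIG1 chose the cells, their levels and those of PDGFRA, SOX10 and EOMES are given as a description and carry no test. Most chosen cells stood well inside the limits: 228 of the 277 held at least 3 UMIs of both genes, 36 held exactly 2 of EGFR and 19 exactly 2 of OLIG1. Just outside, 33 cells held 1 EGFR UMI and enough OLIG1, 41 held 1 OLIG1 UMI and enough EGFR, 39 were left out for PDGFRA and SOX10 and 7 for EOMES. A single PDGFRA or SOX10 UMI was present in 59 of the chosen cells and a single EOMES UMI in 17. OLIG2, the partner of OLIG1, was read on both sides of the limits. It was at 322 and 291 CPM (the UMIs of a gene scaled to all UMIs of the summed cells) in libraries A and B for cells with at least 3 UMIs of both genes. With EGFR at exactly 2 UMIs it was at 185 and 321 CPM, and in cells left out for having 1 EGFR UMI it was at 264 and 229. With OLIG1 at exactly 2 UMIs it was at 149 and 207 CPM, and in cells left out for 1 OLIG1 UMI at 150 and 180. OLIG2 levels thus overlapped across both limits.

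**Figure D1:**
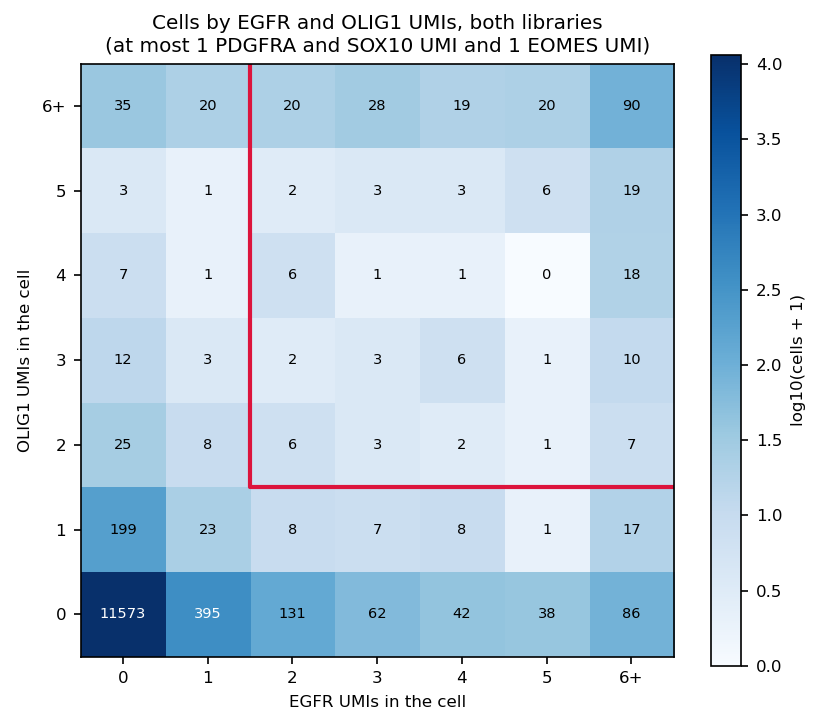
Number of cells by EGFR UMIs (horizontal axis) and OLIG1 UMIs (vertical axis) per cell, both libraries together, for cells with at most 1 UMI of PDGFRA and SOX10 and at most 1 of EOMES. The red line encloses the 277 chosen cells, of which 90 held 6 or more UMIs of each gene; 359 cells held 2 or more EGFR UMIs with no OLIG1, and 82 the reverse.

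The chosen cells were set against 3 other kinds of cell. The first is all other cells, 9581 in library A and 4929 in library B. The PDGFRA and SOX10 cells (at least 2 and 1 UMIs) carry the defining pair of oligodendrocyte precursors and number 52 in library A and 21 in library B. The HOPX and CLU cells (at least 2 UMIs each) carry an outer radial glia gene and an astrocyte gene and number 443 and 222. They leave out the chosen cells and had to meet the same upper limits on PDGFRA, SOX10 and EOMES. Cells with at least 2 UMIs of NEUROD2 and NEUROD6 (4137 and 1851, young excitatory neurons) and of GAD1 and GAD2 (595 and 177, inhibitory neurons) are given beside them. Among the chosen cells 23 reached that NEUROD limit and 5 the GAD limit. All of the PDGFRA and SOX10 cells held at least 2 OLIG1 UMIs, while only 2 and 1 of them held 2 EGFR UMIs. Genes were tested on the UMIs summed over each kind of cell in each library, 4 sums per comparison, with edgeR's quasi-likelihood test and the library as a block. A gene is said to be higher or lower only where its Benjamini-Hochberg adjusted p was under 0.05 over all genes tested and both libraries showed the same direction. Fold changes are on the log2 scale, chosen cells over the comparison cells, with their standard error (SE). The SE comes from the test, which shares spread across genes, so a small SE does not mean that the 2 libraries were close. For DLL3 against the HOPX and CLU cells, 5.57 in library A and 3.94 in library B came with an SE of 0.17. In sums of this kind, fewer cells with a gene and less of it per cell cannot be told apart.

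Against all other cells, the chosen cells showed OLIG2, the Notch ligands DLL1 and DLL3, transcription factors of the ETV group and S phase genes at high levels, and excitatory neuron genes at low levels. Of 14923 genes tested, 1510 (10.1%) were higher and 1748 (11.7%) lower. The counts of each gene list in this comparison are to be read beside these shares. Genes that accompany EGFR or OLIG1 in single cells, as OLIG2 may do, are not independent of the choice. This holds in every comparison of the chosen cells with another kind of cell. Among genes at 50 CPM or more in the higher kind of cell, KCNE5, an accessory subunit of potassium channels, had the largest rise: 228 CPM in library A and 244 in library B against 6.27 and 8.05 in all other cells (log2 fold change 5.08 ± 0.17). OLIG2 was at 302 and 288 CPM against 15.2 and 15.0 (4.30 ± 0.14). IGFBP5, a secreted binder of insulin-like growth factors, was at 592 and 601 CPM against 63.5 and 55.7 (3.31 ± 0.10). For these 3 genes the chosen cells of each library lay far above the other cells of both libraries. LHFPL3, a tetraspan membrane protein gene, was at 960 and 825 CPM against 123 and 102 (2.99 ± 0.09). RASAL1, which switches off RAS, was higher by 4.17 ± 0.31, and G0S2, an inhibitor of fat breakdown, by 3.55 ± 0.21. The tetraspanin CD9 was higher by 3.29 ± 0.25, the potassium channel KCND3 by 3.25 ± 0.25 and the lipid carrier APOD by 2.94 ± 0.21. The 12 largest rises at that level were completed by RTP5, LOC101690236 and LOC101677567.

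ERK target genes were high. Of 18 FGF and ERK genes tested, 9 were higher and 3 lower, with a median log2 fold change of 0.89 beside -0.04 for all genes. ETV1, a transcription factor induced by ERK, was at 413 and 303 CPM against 72.4 and 75 in all other cells (2.33 ± 0.10). Its relatives ETV4 and ETV5 were higher by 2.97 ± 0.45 and 1.58 ± 0.13. EGR1, an immediate early gene of the same pathway, was higher by 1.93 ± 0.10. The feedback inhibitors SPRY1, SPRY2, DUSP6 and SPRED1 were higher as well, by 1.87 ± 0.34, 1.67 ± 0.14, 1.18 ± 0.20 and 0.97 ± 0.16, while the phosphatase DUSP4 was lower by 1.98 ± 0.23, and SPRED3 and FGFR2 were lower too. Of 26 immediate early genes, EGR1 among them, 9 were higher and 1 lower. FOS stood at 1001 and 794 CPM against 323 and 363. Against the HOPX and CLU cells, 7 of 19 immediate early genes were higher in the chosen cells and 6 lower, FOS among the lower. The list summed to 4110 and 3712 CPM in the chosen cells and 4441 and 4476 in the HOPX and CLU cells.

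Within the EGFR and ERBB family, 15 genes other than EGFR were tested. Only LRIG1, a membrane protein that damps EGFR signalling, was higher, at 157 and 120 CPM against 57.5 and 57.4 (1.34 ± 0.13). The receptor ERBB4 was lower (417 and 142 CPM against 1005 and 679), as were the ligands NRG3 and NRG1 and the adaptor GRB2. ERBB4 thus differed more between the 2 libraries of chosen cells than between those of the other cells. Of the EGFR ligands, TGFA had no UMI in the chosen cells, EGF was at 0.846 and 0 CPM, HBEGF at 3.38 and 2.44, and BTC at 9.30 and 12.2. The receptor ERBB2 was at 3.38 and 0 CPM, and ERBB3 had no UMI.

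Among 17 transcription factors with a role in gliogenesis, 9 were higher in the chosen cells and 5 lower. Beside OLIG2 they included RFX4 (243 and 227 CPM), SOX8 (1.88 ± 0.19), TCF7L2 (1.64 ± 0.20), SOX9 (1.32 ± 0.11), SALL3, NFIA and ZBTB20. NFIA, which drives the onset of gliogenesis, was at 1264 and 1265 CPM against 894 and 864. The lower ones were ID4, TCF4, POU3F3, NFIB and NFIX. ID4, an inhibitor of helix-loop-helix factors, was at 306 and 166 CPM against 741 and 775 (-1.58 ± 0.09).

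A pair of Notch ligands was high. The ligand DLL1 was at 134 and 139 CPM against 21.0 and 20.4 (2.72 ± 0.17), and DLL3 at 314 and 300 against 87.5 and 91.6 (1.80 ± 0.10). Of 20 Notch genes 5 were higher and 3 lower, and the lower ones were the ligands JAG1 and DNER, and HES6. In the Hedgehog list 4 of 10 were higher and 1 lower. GAS1, a co-receptor for Hedgehog, was at 530 and 525 CPM against 107 and 99.4 (2.35 ± 0.10), and the signal transducer SMO was higher by 1.37 ± 0.25. In the BMP list 6 of 21 were higher (28.57%) and 4 lower (19.05%). BMP2 was at 47.4 and 36.6 CPM against 2.29 and 2.38 (4.22 ± 0.39). LIFR, the receptor for leukaemia inhibitory factor through which astrocyte genes are induced, was at 129 and 90.3 CPM against 15.4 and 18.3 (2.82 ± 0.19).

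The glial genes in these cells were mixed. Of 28 astrocyte genes 13 were higher and 6 lower, and of 24 radial glia genes 9 were higher and 4 lower. VIM, an intermediate filament gene of radial glia, was at 1854 and 1909 CPM against 775 and 989. DBI, a lipid-binding protein of glia, was at 4348 and 4156 CPM against 1763 and 1934. FABP7, a fatty-acid binder of radial glia, did not pass the test, at 11730 and 12290 CPM against 11620 and 13100. APOE was lower, at 31.3 and 41.5 CPM against 311 and 467 (-3.37 ± 0.15), and so were CLU and HOPX. In an alternative, the other cells were limited to 3759 to 15778 UMIs, from the chosen cells' 25th percentile to their maximum. All chosen cells were kept, so depth was limited only among the other cells and was not matched. The astrocyte count then became 5 higher and 6 lower and the radial glia count 6 higher and 9 lower.

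Genes of excitatory neurons and their progenitors were low against all other cells. Of 19 excitatory neuron genes 0 were higher and 15 lower, and of 14 intermediate progenitor genes 0 were higher and 9 lower. The rule kept cells with at least 2 EOMES UMIs (1105 in library A and 478 in library B) out of the chosen cells only. Genes that accompany EOMES in single cells are thus not independent of the choice. STMN2, a tubulin regulator of neurons, was at 268 and 291 CPM against 1205 and 1149 (-2.09 ± 0.09). CUX2, an upper-layer transcription factor, was lower by 2.62 ± 0.16. The more similar cells gave another picture. Beside the HOPX and CLU cells, 5 of 8 intermediate progenitor genes were higher and 1 lower (DESeq2 called 4 higher). Beside the PDGFRA and SOX10 cells, 4 of 7 were higher and 2 lower (DESeq2 called 0 higher). Excitatory neuron genes were mixed, 5 of 16 higher and 6 lower in the first case and 2 of 14 higher and 4 lower in the second. Of 21 GABAergic genes 11 were lower and 1, GNG5, higher. DESeq2 called 5 of them lower, as did edgeR against other cells of 3759 to 15778 UMIs, where 19 were tested. APOA1 stood at 1.69 and 4.88 CPM against 164 and 388, and it was also lower than in the HOPX and CLU cells (-5.1 ± 0.39). Vessel, blood and microglial genes were among the largest falls. CLDN5 of endothelial tight junctions stood at 3.38 and 19.5 CPM against 34.3 and 191, and IGFBP7 at 9.30 and 34.2 against 168 and 502. Of 10 endothelial genes 8 were lower, and KDR, PECAM1 and CDH5 had no UMI in the chosen cells. HBM, a globin gene, also had no UMI among them, at least 33.2-fold lower, though DESeq2 did not call it. The microglial genes SPP1 and C1QC held 1 and 2 UMIs there, which gives ratios of 190 and 43.9.

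**Figure D2:**
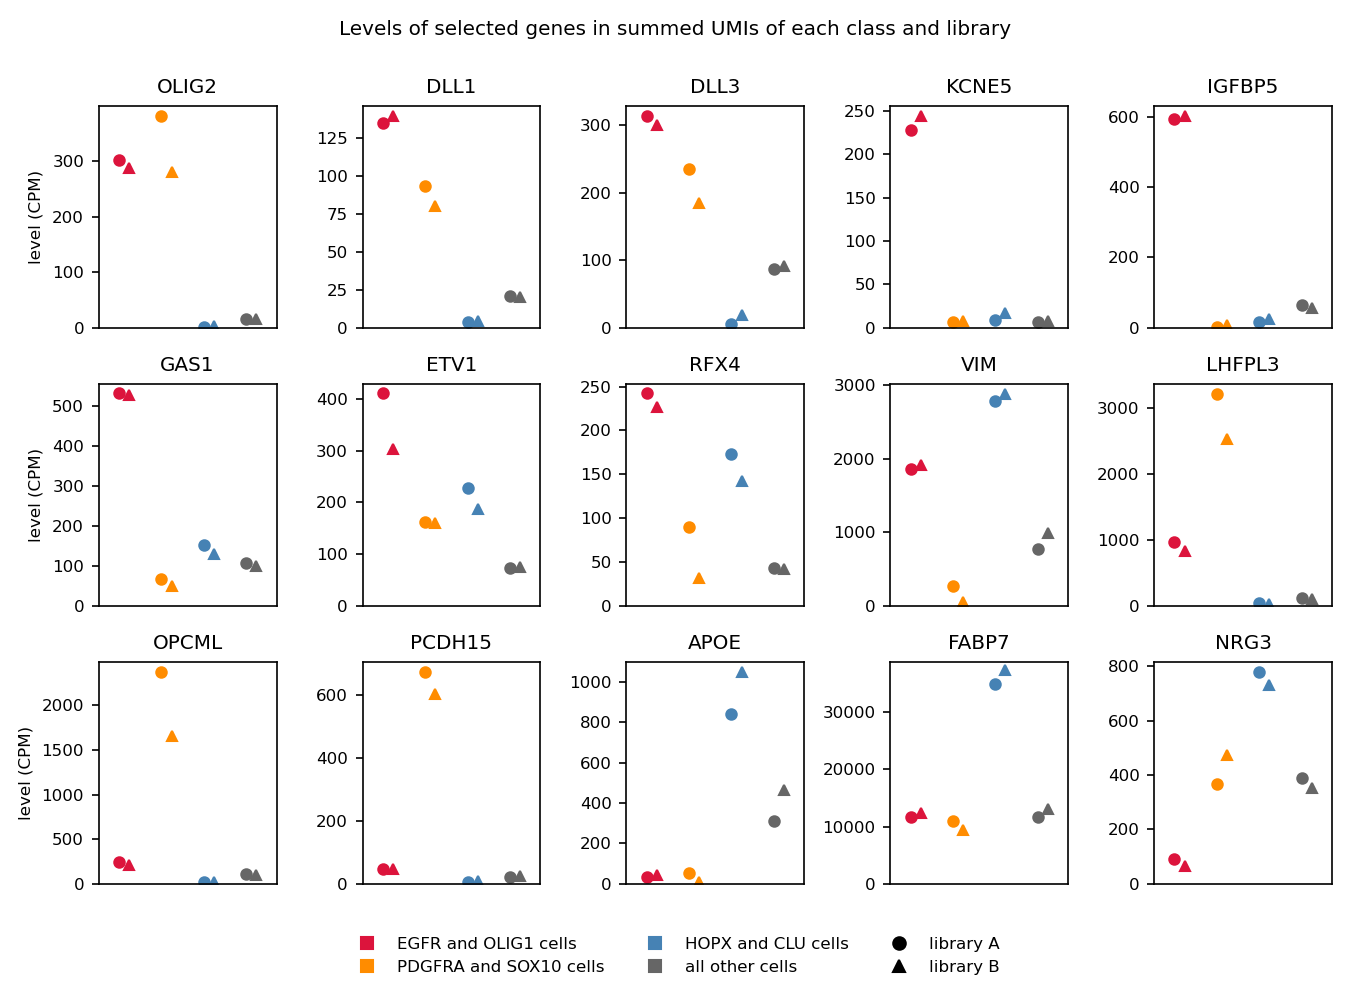
Level in CPM of 15 genes (1 panel each, linear axes from 0) in the chosen cells, the PDGFRA and SOX10 cells, the HOPX and CLU cells and all other cells; circles are library A and triangles library B. OLIG2, DLL1 and DLL3 are present in the first 2 kinds of cell, with DLL3 higher in the chosen cells, and near 0 in the HOPX and CLU cells, IGFBP5 and KCNE5 are high in the chosen cells alone of the 4, and APOE and NRG3 are highest in the HOPX and CLU cells.

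Against the PDGFRA and SOX10 cells, the chosen cells had less of the oligodendrocyte precursor genes and more of the genes of radial glia and Hedgehog reception. Both groups were cut on PDGFRA and SOX10, so genes that accompany this pair in single cells are not independent of the choice. PDGFRA itself was at 33.0 and 29.3 CPM in the chosen cells and at 907 and 740 in the PDGFRA and SOX10 cells, and EGFR at 41.5 and 48.2 CPM in the latter. Of 6453 genes tested, 637 (9.87%) were higher and 716 (11.1%) lower. DESeq2, a second test, called 85 higher and 182 lower, so the balance of the 2 directions depends on the tool. The PDGFRA and SOX10 cells gave only 52 and 21 cells per sum.

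Of 18 oligodendrocyte genes 0 were higher in the chosen cells and 14 lower, with a median log2 fold change of -2.57 beside -0.01 for all genes. DESeq2 also called 14 lower. Summed over the list, gate genes left out, the level was 3768 and 3177 CPM in the chosen cells, 14475 and 11447 in the PDGFRA and SOX10 cells and 1271 and 1199 in all other cells. OPCML, an adhesion protein, was at 246 and 215 CPM against 2372 and 1656 (-3.10 ± 0.13). PCDH15, a protocadherin typical of oligodendrocyte precursors, was at 46.5 and 46.4 CPM against 672 and 603 (-3.75 ± 0.20). TNR, a matrix protein made by the lineage, was at 18.6 and 2.44 CPM against 509 and 201 (-4.85 ± 0.28). The values of the 2 kinds of cell did not overlap for any of these 3 genes. NKX2-2, a transcription factor of the lineage, was at 5.07 and 9.77 CPM against 145 and 145 (-4.42 ± 0.42). BCAS1, a gene of early myelinating cells, was at 3.38 and 0 CPM against 408 and 137 (-6.90 ± 0.39). EPN2 was at 50.7 and 39.1 CPM against 796 and 683.

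Several genes at the lower end held almost no UMI in the chosen cells. POSTN, the matrix protein periostin, held 1 UMI against 137 in the far smaller set of PDGFRA and SOX10 cells, a ratio of 528 with a counting interval from 93.2 to 21000. SCIN, which severs actin, held 0 against 57 and was at least 73.2-fold lower. MATN4 was at least 43.7-fold lower and VWC2 at least 38.5-fold. The homeobox genes IRX1 and IRX2 were at least 30.8-fold and 25.7-fold lower, and AFAP1L2 at least 29.5-fold. BRINP1 and MEGF11 gave ratios of 88.6 and 84.8. TMEM132C gave 170 and B3GNT7 88.6. LHFPL3 and PTPRZ1, both high in the chosen cells against all other cells, were lower than in the PDGFRA and SOX10 cells. LHFPL3 stood at 960 and 825 CPM against 3206 and 2532, and PTPRZ1 at 1294 and 955 against 2856 and 2484.

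In the other direction, IGFBP5 held 946 UMIs in the chosen cells and 2 in the PDGFRA and SOX10 cells, a ratio of 123 (33.9 to 1020) after scaling to the total UMIs. KCNE5 held 370 against 3, a ratio of 32.0 (10.9 to 156). PARD3B, a cell polarity gene, held 199 against 1, and BBOX1, an enzyme of carnitine synthesis, 156 against 1. Their ratios were 51.6 and 40.5. RBMS3, an RNA-binding protein gene, gave 27.9. The Hedgehog effector GLI2 held 100 UMIs against 1 (ratio 26.0, 4.55 to 1040), and the proneural factor NEUROG2 77 against 1. ITGA6, CD99, EFHD2, LRATD1 and CACHD1 completed the 12 largest rises at 50 CPM or more.

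Of 8 Hedgehog genes 6 were higher and none lower, though DESeq2 called 2. GAS1 was at 530 and 525 CPM against 65.8 and 48.2 (3.18 ± 0.24), and the repressor GLI3 at 176 and 146 against 51.9 and 24.1 (1.99 ± 0.32). Of 19 radial glia genes 9 were higher and 2 lower, and of 15 astrocyte genes 8 were higher and 0 lower. DESeq2 called 4 radial glia and 3 astrocyte genes higher. VIM was at 1854 and 1909 CPM against 263 and 56.3 (3.36 ± 0.15), TNC, a matrix protein of outer radial glia, at 373 and 271 against 38.1 and 8.04 (3.61 ± 0.30), and the glutamate transporter SLC1A3 at 500 and 410 against 118 and 96.5 (2.13 ± 0.21). Library B of the PDGFRA and SOX10 cells, with 21 cells, held the lowest value of VIM and TNC. Among gliogenic factors RFX4 (1.78 ± 0.26), ZBTB20 (1.36 ± 0.15) and NFIA (1.09 ± 0.13) were higher and SOX8 and TCF7L2 lower. CDKN1C, an inhibitor of cell cycle entry, was at 570 and 684 CPM against 138 and 80.4 (2.40 ± 0.20). CCND1, a G1 cyclin, was at 16.9 and 29.3 CPM against 246 and 378 (-3.73 ± 0.28). LRIG1 was higher by 2.76 ± 0.39, and the ERBB ligand NRG3 lower by 2.24 ± 0.20.

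Some genes of both lineages did not pass the test between these 2 kinds of cell. OLIG2 was at 302 and 288 CPM against 381 and 281 (-0.16 ± 0.18), and ETV5 at 172 and 181 against 180 and 177 (0.01 ± 0.22). DLL1 was at 134 and 139 CPM against 93.5 and 80.4 (0.65 ± 0.27), while DLL3 was higher in the chosen cells, at 314 and 300 against 235 and 185 (0.56 ± 0.19). A gene that misses the threshold is not thereby shown to be at equal levels.

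Against the HOPX and CLU cells, most radial glia and astrocyte genes tested were lower in the chosen cells, and OLIG2, DLL1, DLL3 and cell cycle genes were higher. Radial glia genes summed to 24134 and 23624 CPM in the chosen cells, 59024 and 60514 in the HOPX and CLU cells and 17844 and 19910 in all other cells. Genes that accompany HOPX or CLU in single cells are not independent of this choice either, and the HOPX and CLU cells were deeper, with a median of 6326 and 5659 UMIs. Of 10623 genes tested, 1584 (14.9%) were higher and 1820 (17.1%) lower. Of 26 astrocyte genes 21 were lower and 1, CHRDL1, higher. Of 22 radial glia genes 19 were lower and LIFR and PTPRZ1 higher. FABP7 was at 11730 and 12290 CPM against 34940 and 37350 (-1.60 ± 0.02). APOE was at 31.3 and 41.5 CPM against 844 and 1048 (-4.72 ± 0.11), and AQP4, the water channel of astrocytes, at 24.5 and 9.77 against 218 and 194 (-3.36 ± 0.19). All 3 genes separated the 2 kinds of cell in both libraries.

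ID4 was at 306 and 166 CPM against 2456 and 2398 (-3.23 ± 0.06). GABRB1, a GABA receptor subunit, was at 38.0 and 26.9 CPM against 564 and 476 (-3.95 ± 0.13). The mucin-like protein gene PDPN was at 6.76 and 7.33 CPM against 103 and 103 (-3.88 ± 0.29). Other large falls from 50 CPM or more were those of PDLIM3, TRIM47, CRYM, TNNI3, FAM167A, PRR16, the Wnt receptor FZD8 and APOA1. The neuropeptide NPY also passed, but its ratio came from library A (9.30 against 210 CPM) and was near none in library B (7.33 against 9.82). NRG3 was at 90.5 and 65.9 CPM against 781 and 730 (-3.20 ± 0.10), and 6 of 11 EGFR and ERBB genes were lower with none higher. Of 16 Notch genes 7 were higher and 6 lower. The ligands DLL1 (5.04 ± 0.27) and DLL3 (5.02 ± 0.17) were higher, with HES6, the effectors RBPJ and HEY2, the modifier MFNG and the receptor NOTCH1 (0.60 ± 0.13). The effectors HES5 (-2.22 ± 0.09), HES1 (-1.88 ± 0.12) and HEY1 (-1.70 ± 0.24) were lower, with the receptors NOTCH2 (-2.70 ± 0.14) and NOTCH3 and the modifier LFNG.

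OLIG2 was at 302 and 288 CPM against 1.98 and 3.51 (6.86 ± 0.22). APOD held 135 UMIs against 0 and was at least 126-fold higher. LHFPL3 was at 960 and 825 CPM against 38.6 and 33.7 (4.62 ± 0.10), and CDKN1C at 570 and 684 against 23.1 and 28.8 (4.59 ± 0.12). In both libraries these 4 genes were far lower in the HOPX and CLU cells. IGFBP5, KCNE5, RTP5, G0S2, DOCK10 and LOC101677567 were the other large rises at 50 CPM or more. GAS1 was higher by 1.88 ± 0.09 while GLI2 and GLI3 were lower by 1.18 ± 0.15 and 1.87 ± 0.09, the reverse of their difference from the PDGFRA and SOX10 cells. These 2 comparisons share the chosen cells. Of 13 oligodendrocyte genes 8 were higher and 2 lower. Of 15 FGF and ERK genes 5 were higher (ETV4, DUSP6, EGR1, ETV1, ETV5) and 4 lower (FGFR1, FGFR2, FGFR3, FGFBP3).

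**Figure D3:**
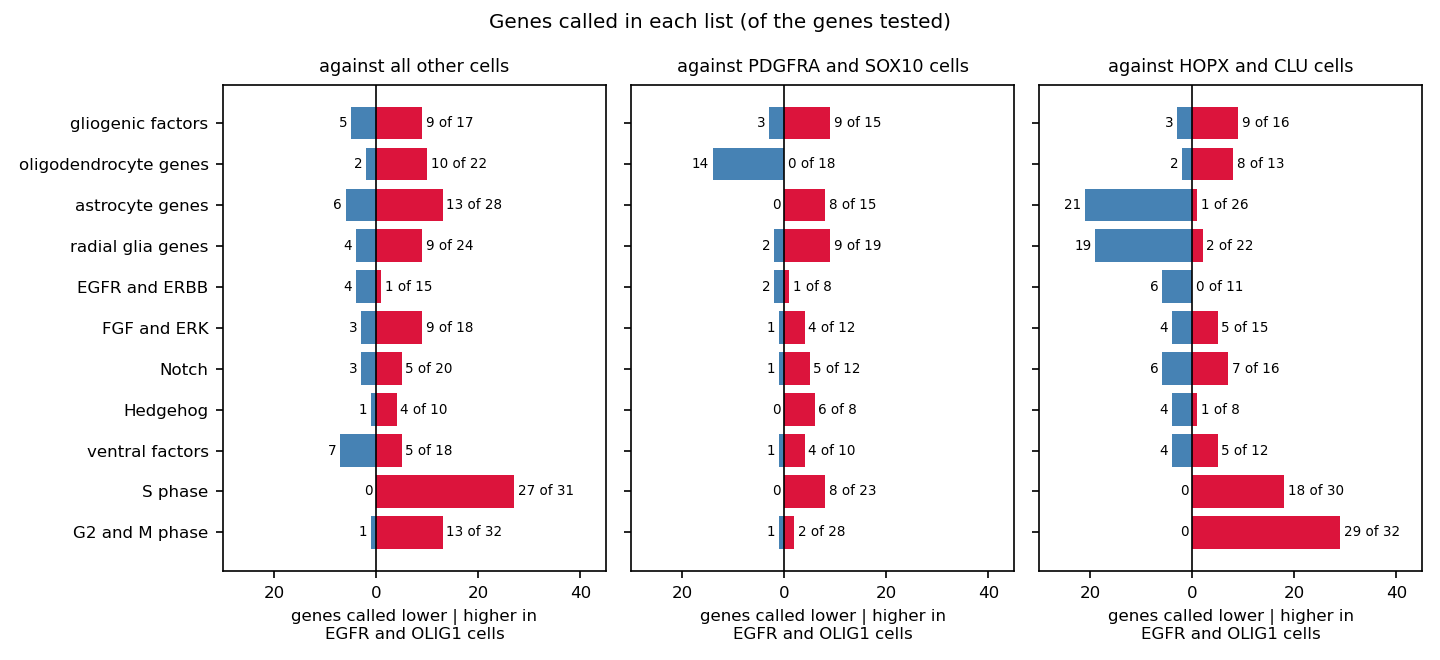
Number of genes called higher (right of 0) and lower (left of 0) in the chosen cells for 11 gene lists in the 3 comparisons, with the number of list genes tested. The oligodendrocyte list has 10 higher and 2 lower against all other cells, 0 and 14 against the PDGFRA and SOX10 cells, and 8 and 2 against the HOPX and CLU cells.

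The chosen cells were cycling to a degree that needs equal depth to be read. Of 31 S phase genes 27 were higher than in all other cells and 0 lower, against a background of 10.1% of all genes, and of 32 G2 and M genes 13 were higher and 1 lower. With other cells limited to 3759 to 15778 UMIs the S count was 14 higher, and the G2 and M count turned to 0 higher and 5 lower. All chosen cells were kept there, so that limit did not make depth equal. Thinned to 1500 UMIs, 48.8% (41.7 to 55.9) of the chosen cells in library A and 48.7% (37.0 to 60.4) in library B held at least 2 UMIs of S phase genes, against 27.3% and 31.6% of all other cells. The share was 42.3% and 47.6% in the PDGFRA and SOX10 cells, 42.2% and 37.4% in the HOPX and CLU cells, and 15.4% and 19.3% in the young neurons with NEUROD genes. Before thinning it was 78.6% and 72.4% in the chosen cells.

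For at least 2 UMIs of G2 and M genes the thinned share was 35.8% (29.2 to 42.9) and 36.8% (26.1 to 48.7) in the chosen cells and 25.5% and 25.7% in the HOPX and CLU cells. It was 25% and 47.6% in the PDGFRA and SOX10 cells and 39.2% and 42.1% in cells with EOMES. Unthinned, the order of the chosen cells and the HOPX and CLU cells was the opposite, 61.2% and 59.2% against 77.0% and 68.0%; the HOPX and CLU cells were the deeper ones. In the sums, 29 of 32 G2 and M genes were higher than in the HOPX and CLU cells and 0 lower. TOP2A was at 336 and 278 CPM against 104 and 76.5 (1.74 ± 0.11). With dividing cells (at least 2 UMIs of MKI67 and TOP2A, 63 of the 277) left out on both sides, the count was 3 higher and 1 lower of 17 tested. MKI67 and TOP2A belong to the G2 and M list, so part of this fall was set by the choice, and fewer genes were tested. The S phase count fell from 18 to 5 of 27 tested. In the young neurons the thinned share with G2 and M UMIs was 7.49% and 10.8%. Against the PDGFRA and SOX10 cells 8 of 23 S phase genes were higher, and DESeq2 called 0.

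**Figure D4:**
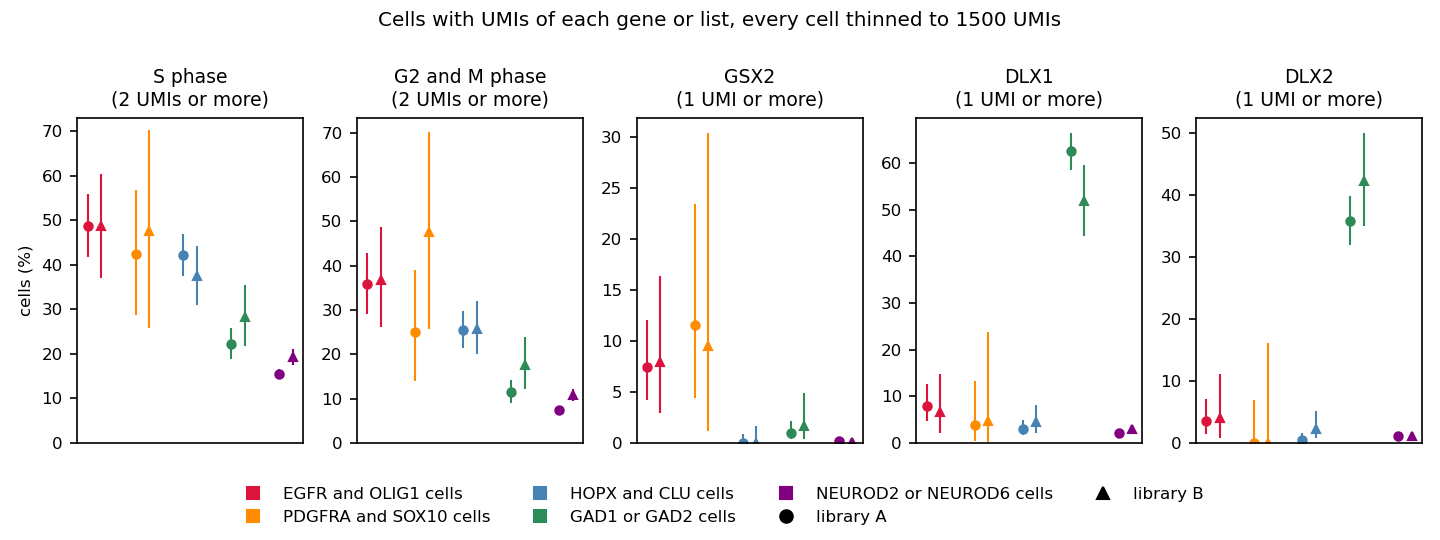
Share of cells (vertical axis, %) with at least 2 UMIs of S phase genes or of G2 and M phase genes, or at least 1 UMI of GSX2, DLX1 or DLX2, after thinning each cell to 1500 UMIs, in 5 kinds of cell and 2 libraries with exact 95% intervals. GSX2 is in 7.46% and 7.89% of the chosen cells and in 0 of the HOPX and CLU cells, and DLX1 and DLX2 are highest in the cells with GAD genes.

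Some ventral transcription factors were present at low levels. GSX2 was at 52.4 and 46.4 CPM in the chosen cells, 45 and 40.2 in the PDGFRA and SOX10 cells, 11.4 and 10.4 in cells with GAD genes (inhibitory neurons), and 0.989 and 0 in the HOPX and CLU cells. In all other cells it was at 7.13 and 5.79 CPM (2.93 ± 0.30). It held 81 UMIs in the chosen cells and 3 in the HOPX and CLU cells, a ratio of 75.6 (25 to 374), and it did not pass the test against the PDGFRA and SOX10 cells (0.26 ± 0.41). DLX1 was at 72.7 and 70.8 CPM against 790 and 565 in the cells with GAD genes, and DLX2 at 29.6 and 53.7 against 293 and 292. Against the HOPX and CLU cells DLX1 (1.38 ± 0.22) and DLX2 (1.75 ± 0.32) were higher, and against all other cells DLX1 was lower (-0.51 ± 0.15) and DLX2 did not pass (-0.12 ± 0.22). DLX5, which follows DLX1 and DLX2 in interneurons, was at 11 and 4.88 CPM against 385 and 373 in the cells with GAD genes. NKX2-1, ISL1 and LHX8, genes of more ventral domains, had no UMI in the chosen cells, and LHX6 was at 10.2 and 2.44 CPM.

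After thinning, GSX2 was found in 7.46% (4.24 to 12) and 7.89% (2.95 to 16.4) of the chosen cells. Young neurons, which should lack it, had 0.169% and 0.108%. The source of these UMIs, such as free RNA, doublets or expression, was not tested. A doublet score above 0.2 was found in 4.69% and 4.11% of the young neurons, less often than in the chosen cells. The PDGFRA and SOX10 cells had 11.5% and 9.52%. In the HOPX and CLU cells it was found in 0, which allows a share of up to 0.829% and 1.65% by the exact interval. DLX1 was found in 7.96% and 6.58% of the chosen cells against 2.13% and 3.03% of the young neurons, with intervals of 4.62 to 12.6 and 2.17 to 14.7. The interval of library B thus includes the young neurons' share. DLX2 was found in 3.48% and 3.95% against 1.04% and 1.13%. The interval of library B, 0.822 to 11.1, again includes the young neurons' share. GAD1 or GAD2, enzymes of GABA synthesis, were found in 2.49% (0.813 to 5.71) and 0 of the chosen cells, the latter allowing up to 4.74%, against 1.45% and 1.73% of the young neurons. Before thinning these shares were 5.97% and 5.26% against 3.07% and 2.76%. DLX5 or DLX6 were found in 0 and 2.63% against 1.33% and 1.35%, and before thinning in 3.98% and 3.95% against 2.97% and 3.40%.

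At full depth 95 of the 277 chosen cells (72 in library A and 23 in library B) held a UMI of GSX2, DLX1 or DLX2, and 182 held none. GSX2 was found in 46 and 11 cells, DLX1 in 35 and 10, and DLX2 in 20 and 14. GSX2 came with DLX1 or DLX2 in 19 and 5 cells, and all 3 were found in 5 and 3. The cells with a UMI were deeper, at a median of 5823 and 5276 UMIs against 4814 and 3952, so detection and depth moved together. These 3 genes made the split and are not results of it.

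Cells with a ventral UMI had more of NRXN3, GALNTL6 and NXPH1 and of some G2 and M genes, and less of CDKN1C and KCNE5. Of 6217 genes tested, 25 (0.402%) were higher and 23 (0.37%) lower. NRXN3, a presynaptic adhesion gene, was at 582 and 314 CPM with a ventral UMI and 102 and 98.8 without (2.22 ± 0.23). It was the 1 gene that DESeq2 also called. GALNTL6 was at 137 and 75.2 CPM against 13.8 and 26.6 (2.70 ± 0.41). NXPH1, a neurexin ligand of interneurons, was at 80.7 and 116 CPM against 20.7 and 19.0 (2.13 ± 0.41). Each of these 3 was higher in both libraries, though with the 3 ventral genes read at 1500 UMIs the fold change of NXPH1 turned to -2.07. The glutamate receptor genes GRIA1 (2.64 ± 0.53) and GRIK2 (1.18 ± 0.22) were higher as well, the first on 36 UMIs against 9, while the glutamate receptor gene GRM5 was lower (-1.93 ± 0.42). NRG3 was at 161 and 75.2 CPM against 45.6 and 60.8, a difference mostly of library A that turned to -0.23 at that depth.

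Of 28 G2 and M genes 7 were higher and 0 lower, against a background of 0.402%. TPX2, a spindle factor, was at 251 and 219 CPM against 110 and 72.2 (1.28 ± 0.25), and BIRC5 at 196 and 301 against 127 and 49.4 (1.19 ± 0.25). NUSAP1, CENPF, CENPE, BUB1B and UBE2C were the others. The thinned share with at least 2 G2 and M UMIs was 41.7% and 69.6% with a ventral UMI and 32.6% and 22.6% without. DESeq2 called 0 of the list higher, as did edgeR with thinned cells (11 tested) and with middle UMI totals (13 tested). Without doublet scores above 0.2 the count was 4, and without cells with GAD1, GAD2, DLX5 or DLX6 UMIs it was 14. With dividing cells left out, which were picked by 2 genes of the list, 1 of 7 tested was higher. CDKN1C was at 397 and 451 CPM against 680 and 813 (-0.83 ± 0.18), KCNE5 at 157 and 157 against 274 and 292 (-0.86 ± 0.23), and LIFR at 56.7 and 68.4 against 175 and 103 (-1.36 ± 0.31). At 50 CPM or more in the higher kind, the other large falls were SCD5, NRN1, CACHD1, TNFAIP8, UNC5D, CNTN5, LRP1B, NTRK3, SLC44A5 and DSCAM. OLIG2 was at 305 and 287 CPM against 300 and 289 (-0.01) and did not pass, nor did ETV1, DLL3 or IGFBP5. ERBB4 stood at 809 and 144 CPM against 169 and 141, a difference of library A alone, and was not called.

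The calls of this split depended on the depth and the tool. With the ventral genes read at 1500 UMIs and all UMIs tested, 10 genes were higher and 22 lower, and 13 of these 32 were among the 48. With the full-depth split and cells thinned to 1500 UMIs, 0 of 1921 genes tested were called by edgeR, with 117 at an unadjusted p under 0.05. With the cells between the 25th and 75th percentile of UMI totals (3759 to 7265), 0 of 2863 were called, with 222 at an unadjusted p under 0.05. Without cells of a doublet score above 0.2, 18 were called. DESeq2 called 1, and 35 had an unadjusted p under 0.05, against 470 in the edgeR fit. A GAD1, GAD2, DLX5 or DLX6 UMI was held by 14 and 6 of the chosen cells, 12 and 3 of them with a ventral UMI. The GABAergic genes summed to 1713 and 1073 CPM with a ventral UMI, 822 and 710 without, and 15212 and 10875 in cells with GAD genes. Without the cells with a GAD1, GAD2, DLX5 or DLX6 UMI, 70 genes were called, 36 of them among the 48.

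**Figure D5:**
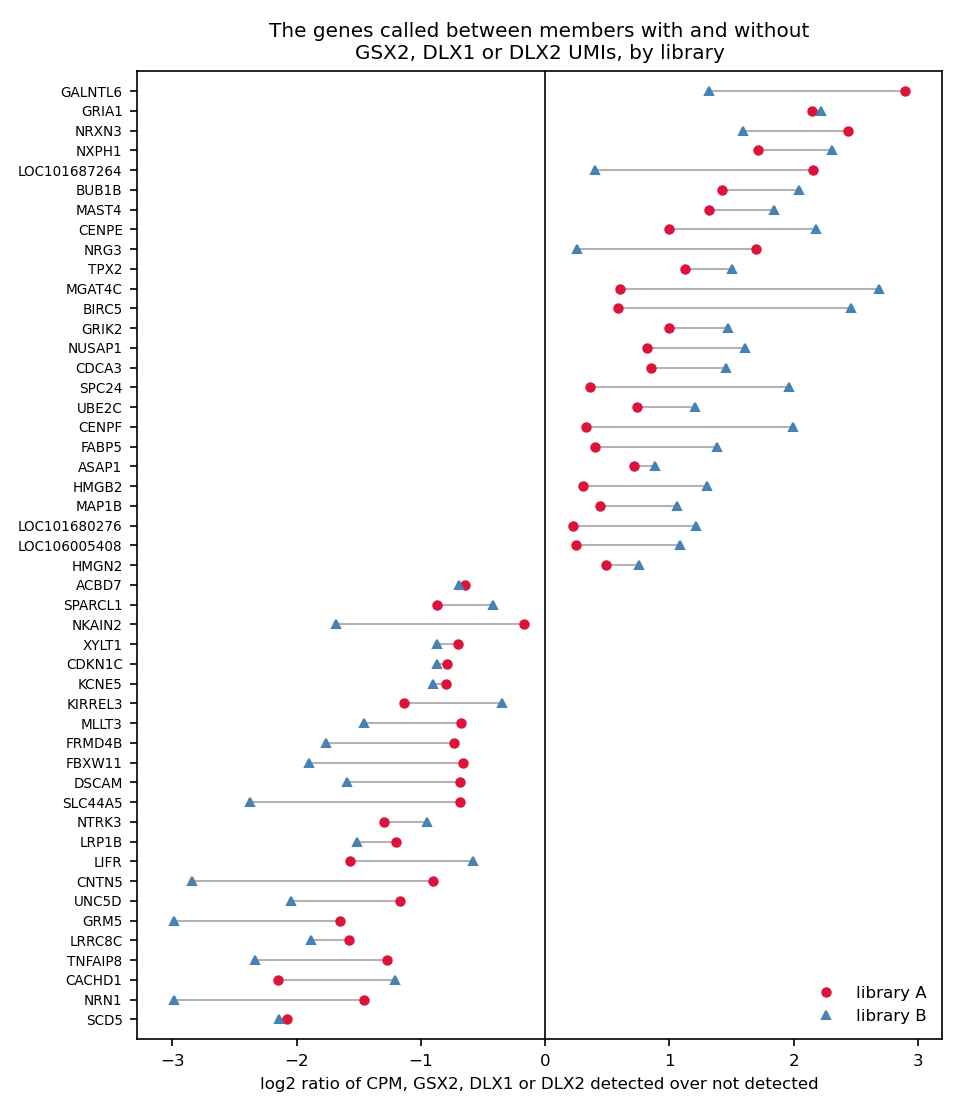
Log2 ratio of CPM in chosen cells with a UMI of GSX2, DLX1 or DLX2 over those without, for the 48 genes called in that split, with circles for library A and triangles for library B. All 48 have the same sign in both libraries because the rule asks for it; NRXN3, GALNTL6 and GRIA1 are among the highest and SCD5 and NRN1 among the lowest.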

How the data were processed

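The deposited matrix, 1 for both replicates, holds raw UMI counts. Per the submitters' processing notes, the authors made these counts with Cell Ranger. The version and the build were not given in the sources used here, nor was the cell filter. No cell held under 1501 UMIs or over 4995 genes. Of 21317 genes with a UMI, 21231 (99.6%) matched RefSeq symbols of the ferret (ASM1176430v1.1).

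All cells were kept. The cells, the 25 gene lists and the tests were chosen with earlier results of these data known. UMIs were summed per kind of cell and library (at least 20 cells per sum, 10 in alternatives) and fitted with edgeR 4.0.16 in R 4.3.3 (quasi-likelihood test, TMM scaling, filterByExpr, library as a block, 1 residual degree of freedom). The libraries pair the sums because each holds both kinds of cell. EGFR, OLIG1, PDGFRA, SOX10 and EOMES were left out of every test, HOPX and CLU out of theirs, and GSX2, DLX1 and DLX2 out of the split. Genes with 3 or fewer UMIs in 1 kind of cell are given by UMIs with an exact counting interval, or against a floor of 3 UMIs over both libraries. Named genes are the 12 higher and 12 lower with the largest fold change among those called at 50 CPM or more in the higher kind and a log2 fold change of 1 or more, plus members of the lists. Doublet scores came from Scrublet (scanpy 1.11.5) and removed cells only in an alternative. The fits were tested on simulated data. Alternatives were DESeq2 1.42.0, other gates, thinning, no block, no filter, no TMM scaling, and cells left out.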

Additional observations from a re-analysis of the deposited data

How the results depend on the processing

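Against all other cells, edgeR called 3258 genes, DESeq2 1153 and edgeR on cells thinned to 1500 UMIs 1539. Against the PDGFRA and SOX10 cells the counts were 1353, 267 and 454, and against the HOPX and CLU cells 3404, 1008 and 1638. Fewer UMIs remain after thinning. In the split by ventral UMIs, 48 genes became 1 with DESeq2, 18 without doublet scores above 0.2, 32 with detection read at 1500 UMIs (13 of them among the 48), and 0 with thinning, with middle UMI totals or with 2 or more UMIs against 0 (376 at an unadjusted p under 0.05). With no replicate block, which drops the pairing of sums by library, the counts were 2615, 1102, 2936 and 38. No filter, no TMM scaling, leaving out dividing cells and, outside the split, the other gates and doublet removal kept each total within 1.5 times. By direction, the 1510 higher than all other cells became 951 with the stricter gate and 942 with other cells of 3759 to 15778 UMIs. The 637 higher than the PDGFRA and SOX10 cells became 419 without dividing cells. In the split the 25 higher became 15 without dividing cells and 42 without GAD, DLX5 or DLX6 UMIs. Of the 24 genes named by size, 23, 15, 22 and 1 were also called by DESeq2, and 23, 10, 23 and 0 in every edgeR alternative.

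The share of cells chosen was 1.30% and 0.899% in libraries A and B with at least 3 UMIs of EGFR and OLIG1 and 0 of PDGFRA, SOX10 and EOMES, 2.62% and 2.36% with at least 1 UMI of EGFR and OLIG1, and 0.889% and 0.559% at 1500 UMIs. Thinning moved the S phase share to 48.8% and 48.7%, G2 and M to 35.8% and 36.8%, GSX2 to 7.46% and 7.89%, DLX1 to 7.96% and 6.58%, DLX2 to 3.48% and 3.95%, and any of the 3 to 16.9% and 15.8%. Directions turned for BOC against all other cells with thinning (log2 fold change -0.43), for KIF23 without dividing cells (-0.35), and in the split read at 1500 UMIs for MGAT4C (-0.41), NRG3 (-0.23) and NXPH1 (-2.07). The cause was not tested. Leaving out 1 library leaves no residual degree of freedom, so counts have no such value and genes have their values per library. The split with the stricter gate was not run, since library B had 9 cells in 1 sum. Leaving out cells with GAD1, GAD2, DLX5 or DLX6 UMIs was chosen after seeing the data. Genes with few UMIs in 21 cells limit the comparison with the PDGFRA and SOX10 cells.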
